A study of Mus musculus with 6 samples.

Results

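The 10 genes around interleukin-1, TNF and the feedback control of NF-kB that were followed in lungs of Nogo-A/B knockout and wild-type mice were Il1a, Il1b, Il1rn, Il1r2, Tnf, Il6, Nfkbia, Tnfaip3, Ptgs2 and Icam1. They were taken as all probes on the array that carry one of these gene names, 15 probes for 10 genes of 27660 names on the array, and each gene was represented by its brightest probe. All 10 were among the 20246 genes tested, which needed a probe that the scanner called well above background in 3 or more lungs. The samples were 3 Nogo-A/B knockout (KO) lungs, numbered 1, 11 and 12 in the labels, and 3 wild-type (WT) lungs, numbered 11, 12 and 13. All came from naive male mice aged 8 weeks, each lung on its own single-colour array. Nogo-A and Nogo-B are products of the reticulon gene Rtn4. The labels used here give neither the strain nor the construction of the deletion.

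Interleukin-1 alpha and beta are cytokines that act on a common signalling receptor. Il1rn encodes a secreted antagonist of that receptor, and Il1r2 a decoy receptor that binds interleukin-1 without signalling. Interleukin-1 and TNF both release the transcription factor NF-kB, which induces the inhibitors Nfkbia and Tnfaip3 that switch it off again, as well as the cytokine Il6, the prostaglandin synthase Ptgs2 and the adhesion molecule Icam1. In lung, macrophages, neutrophils, endothelium and epithelium can all express genes of this circuit.

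The 250 bases before the RefSeq transcription start (GRCm38.p6) are shown for the 3 genes whose window held a match to the kB consensus. This is the sequence bound by NF-kB. Only exact matches to the consensus were counted, so a window without one, as for Ptgs2 and Icam1, may still hold a variant of it. Capitals mark the matches, on either strand.
Nfkbia (chr12:55492648-55492897, minus strand): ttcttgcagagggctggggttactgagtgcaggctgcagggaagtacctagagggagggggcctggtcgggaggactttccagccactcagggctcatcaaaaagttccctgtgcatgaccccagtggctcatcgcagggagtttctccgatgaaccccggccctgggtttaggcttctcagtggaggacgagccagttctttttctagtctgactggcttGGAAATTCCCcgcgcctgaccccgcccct
Tnfaip3 (chr10:19015411-19015660, minus strand): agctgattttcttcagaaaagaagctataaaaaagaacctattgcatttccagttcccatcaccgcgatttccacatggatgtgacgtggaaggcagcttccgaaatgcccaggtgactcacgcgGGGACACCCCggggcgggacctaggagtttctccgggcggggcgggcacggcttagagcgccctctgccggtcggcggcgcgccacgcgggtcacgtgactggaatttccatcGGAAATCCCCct
Il6 (chr5:30012864-30013113, plus strand): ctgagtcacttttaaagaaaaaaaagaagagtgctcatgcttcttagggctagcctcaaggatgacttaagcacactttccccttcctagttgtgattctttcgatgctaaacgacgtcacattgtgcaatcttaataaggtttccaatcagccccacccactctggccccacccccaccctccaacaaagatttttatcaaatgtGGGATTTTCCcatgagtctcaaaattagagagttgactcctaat
The Nfkbia match ran from -29 to -20 and the Il6 match from -44 to -35, with the start base counted as 0. Tnfaip3 had a match from -12 to -3 and another from -125 to -116 that reads as the consensus on both strands. Of the 13 windows listed for the 10 genes, 3 held the consensus, against 7.25% of the 32851 windows of all genes. A match in these letters is a description of the window and not a binding site, and no binding was measured.

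Il1r2 was read by a pair of probes that lie in different parts of its transcript, shown here because this gene had the widest spread in the set.
Il1r2, brighter probe (mm7 chr1:40362239-40362298, plus strand): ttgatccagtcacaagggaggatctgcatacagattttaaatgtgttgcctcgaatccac
Il1r2, dimmer probe (mm7 chr1:40351196-40354143, plus strand): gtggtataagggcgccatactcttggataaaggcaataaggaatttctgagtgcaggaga
The 60 bases of the dimmer probe cover 2948 bases of genome in the array's coordinates, so it spans an intron, while the brighter probe lies in a single stretch.

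All values below are log2 of the scanner's processed signal relative to the 75th percentile of the same array, so they compare lungs within a gene and not genes with each other. The scanner called 68.9% to 78.0% of an array's probes well above background. The 14 listed lung epithelial markers were well above background on all 6 arrays. Rtn4, in the probe shared by 4 of its transcripts and therefore not specific to the deleted products, measured 1.1, -0.71 and -1.79 in KO 1, KO 11 and KO 12, against 1.69, 1.62 and 2.36 in WT 11, WT 12 and WT 13. Its difference was -2.81 (SE 0.57), with groups that did not overlap and an adjusted p of 0.9995 in limma. The arrays were scanned on 2 days, and the scan day is in the model unless stated otherwise. Day 1 held KO 1, KO 11 and WT 13, and day 2 held KO 12, WT 11 and WT 12. Across genes, correlations between arrays ran from 0.9722 to 0.9941 within a day and from 0.9502 to 0.9651 between days. Day 2 coincides with slide 3, so scan day and slide cannot be told apart there. In bulk lung RNA, fewer cells of a type and less RNA per cell cannot be told apart.

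Il1b and Il1r2 had the largest differences of the 10 genes, at 3.61-fold and 3.23-fold lower fitted signal in KO lungs, but neither these nor the other 8 passed the test. In limma 0 of the 10 had an adjusted p below 0.05, and 0 had an unadjusted p below that level. A fitted signal at least 2-fold lower was found for 1.09% of all genes. Over all 20246 genes tested, 0% passed the adjusted threshold and 2.1% had an unadjusted p under 0.05. The fitted difference was below 0 for 9 of the 10 genes, Icam1 being the exception, where 46.9% of all genes lay below 0. The median difference of the 10 genes was -0.44, against 0.01 over all genes. The 10 genes were chosen with earlier results of these data known. In none of the 10 did the lungs of the groups separate without overlap, a pattern found in the lower direction for 1.6% of all genes and in the higher direction for 2.4%. With slide as a random block in place of the day, Il1b, Il1rn, Il1r2, Il6 and Ptgs2 had an unadjusted p under 0.05 in limma, where 3.57% of all genes did. In that fit 0 of the 10 passed the adjusted threshold. Slide 1 held KO 1 and WT 13, slide 2 KO 11 alone, and slide 3 the lungs of day 2. The slide fit therefore compares KO 11 with wild-type lungs only across slides. With the day kept and KO 11 left out, 4 of the 10 had an unadjusted p under 0.05 in limma, where 917 of the 20246 genes did. The labels' design calls the lungs biological replicates.

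**Figure D1:**
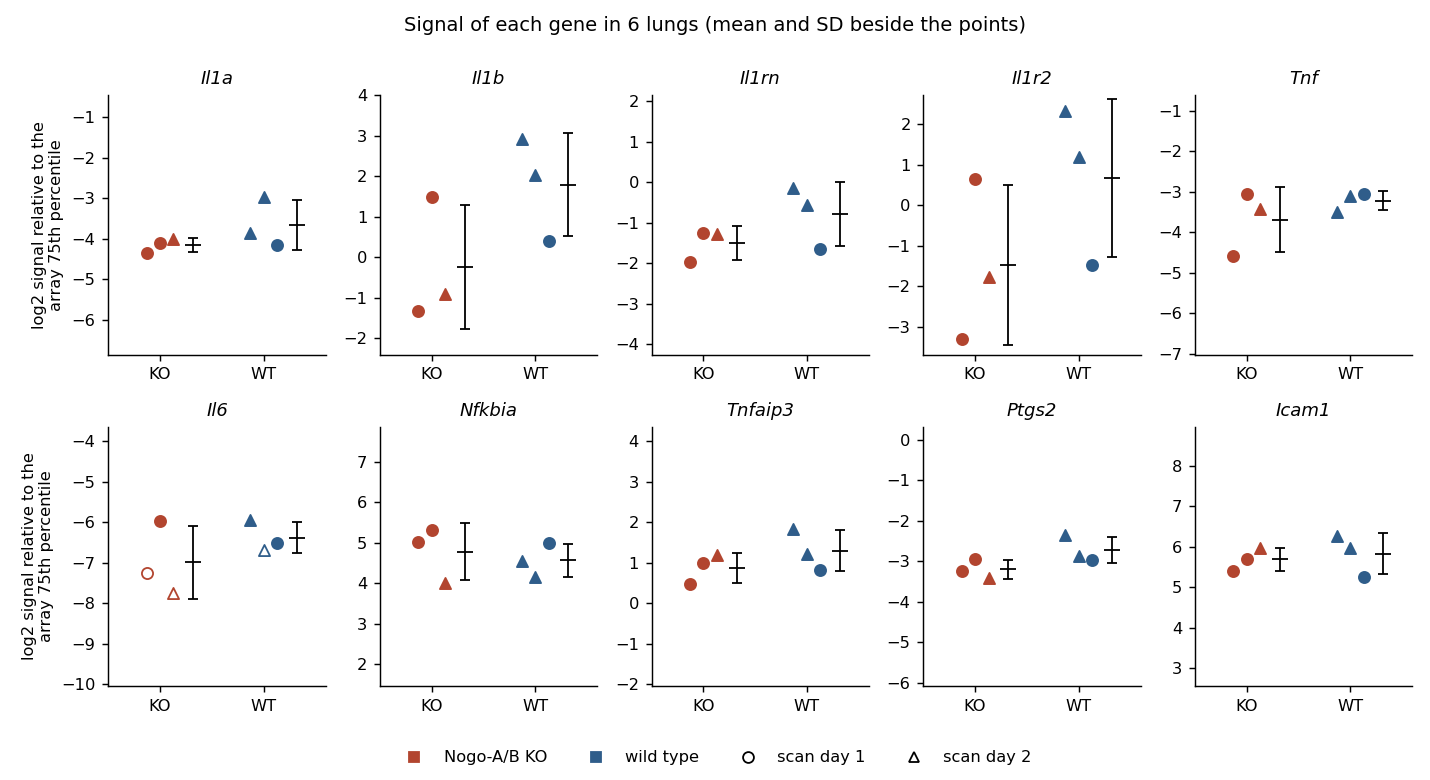
Log2 signal relative to the array's 75th percentile (y axis, a window of equal height in every panel) for each gene in 3 KO and 3 WT lungs. Red marks KO and blue WT, circles scan day 1 and triangles scan day 2, open symbols are arrays where the probe was not well above background, and bars beside the points give the mean and SD. Il1b and Il1r2 spread over 4.24 and 5.61 log2 units, and the groups overlap in every panel.

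Among the ligands, Il1b varied most. Its signal was -1.32, 1.5 and -0.90 in KO 1, KO 11 and KO 12, against 2.92, 2.04 and 0.41 in WT 11, WT 12 and WT 13. The upper end was formed by WT 11 and WT 12 and the lower end by KO 1 and KO 12, but KO 11 lay above WT 13, so the groups overlapped. The means were -0.24 ± 1.52 in KO and 1.79 ± 1.27 in WT (SD, n = 3 each). Allowing for scan day, the difference was -1.85 (SE 1.05, 95% interval from -4.51 to 0.81), with an adjusted p of 0.9995 in limma. Leaving out KO 12, so that only day 1 compares the genotypes, gave -0.32, and leaving out WT 13, so that only day 2 does, gave -3.38. The probe was printed on each array in 10 spots, whose log2 signals had an SD of 0.0379 to 0.0580 within an array.

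Il1a, the other agonist of the interleukin-1 receptor, had a range of 1.36 log2 units over the lungs. It measured -4.34, -4.11 and -4.0 in KO 1, KO 11 and KO 12, against -3.85, -2.98 and -4.15 in WT 11, WT 12 and WT 13. Only WT 12 stood above the rest. The difference was -0.33 (SE 0.29), with an interval from -1.07 to 0.41. A second Il1a probe, across an exon junction, gave -0.08 (SE 0.34), and WT 12 was again its highest lung, at -3.09.

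Il1r2 and Il1rn, the inhibitors of interleukin-1, follow. Il1r2 had the widest spread of the 10 genes, at -3.29, 0.64 and -1.78 in KO 1, KO 11 and KO 12, against 2.32, 1.19 and -1.48 in WT 11, WT 12 and WT 13. The 6 lungs fell in the same order as for Il1b, with WT 11 highest, KO 1 lowest and KO 11 above WT 13. Its means were -1.48 ± 1.98 in KO and 0.68 ± 1.95 in WT (SD, n = 3 each), and the difference of -1.69 (SE 1.37) had an interval from -5.17 to 1.78 and an adjusted p of 0.9995 in limma. Without KO 12 this difference was 0.15, and without WT 13 it was -3.54. The dimmer of the probes printed above gave the same order, from 0.54 in WT 11 to -5.28 in KO 1, and a difference of -1.84 (SE 1.42).

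Il1rn, the secreted antagonist, spanned less than Il1r2. It measured -1.97, -1.25 and -1.27 in KO 1, KO 11 and KO 12, against -0.13, -0.55 and -1.65 in WT 11, WT 12 and WT 13. WT 11 and WT 12 were the highest lungs and KO 1 the lowest, with WT 13 among the knockouts. The difference was -0.44 (SE 0.33, interval from -1.28 to 0.40), and its second probe gave -0.22 (SE 0.48).

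Tnf, the ligand of the TNF receptors, had a range of 1.55 log2 units. It measured -4.60, -3.05 and -3.44 in KO 1, KO 11 and KO 12, against -3.50, -3.12 and -3.07 in WT 11, WT 12 and WT 13. KO 1 stood below all other lungs, while KO 11 was the highest. The difference was -0.45 (SE 0.47, interval from -1.63 to 0.73), and without KO 1 it was -0.07.

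Il6 was near the limit of detection. It was well above background in 1 of 3 KO lungs and 2 of 3 WT lungs. Its log2 signal was -7.25, -5.98 and -7.75 in KO 1, KO 11 and KO 12, against -5.94, -6.69 and -6.51 in WT 11, WT 12 and WT 13. The difference of -0.76 (SE 0.51, interval from -2.05 to 0.52) therefore rests largely on arrays where the probe was not well above background. The 10 spots of this probe varied with an SD of up to 0.502 within an array.

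Neither feedback inhibitor of NF-kB passed the test. Nfkbia, which encodes the protein that retains NF-kB in the cytoplasm, measured 5.03, 5.33 and 4.0 in KO 1, KO 11 and KO 12, against 4.55, 4.17 and 4.99 in WT 11, WT 12 and WT 13. Its lungs were ordered by scan day, with all 3 lungs of day 1 above all 3 of day 2. The genotype difference was -0.09 (SE 0.22, interval from -0.64 to 0.46), and 0.21 without the day in the model. Tnfaip3, which encodes the ubiquitin-editing enzyme A20, measured 0.47, 0.99 and 1.19 in KO 1, KO 11 and KO 12, against 1.85, 1.23 and 0.83 in WT 11, WT 12 and WT 13. Its highest lungs were WT 11 and WT 12, and the difference was -0.22 (SE 0.26, interval from -0.87 to 0.42).

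Of the remaining NF-kB targets, Ptgs2 had the smallest unadjusted p of the 10 genes. Its brighter probe measured -3.23, -2.95 and -3.41 in KO 1, KO 11 and KO 12, against -2.35, -2.86 and -2.96 in WT 11, WT 12 and WT 13. Only KO 11 and WT 13, at nearly equal values, kept the groups from separating. The difference was -0.47 (SE 0.25, interval from -1.1 to 0.16). Its p in limma was 0.114 before adjustment and 0.9995 after it. Without KO 12 the difference was -0.13, and without WT 13 it was -0.81.

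The other Ptgs2 probe, nearly as bright and printed in 10 spots, measured -3.40, -3.31 and -3.38 in KO 1, KO 11 and KO 12, against -2.19, -2.75 and -3.02 in WT 11, WT 12 and WT 13. Here every knockout lung lay below every wild-type lung, so whether the groups separate for Ptgs2 depends on the probe. In a limma fit over all 30505 single probes it differed by -0.62 (SE 0.23). Its p in limma was 0.0423 before adjustment and 0.9997 after it. Among those probes 1.41% were lower in the knockout at an unadjusted p under 0.05, and 1.68% had groups that did not overlap in that direction.

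Icam1, which binds leukocyte integrins on endothelium and epithelium, had a range of 0.99 log2 units. It measured 5.41, 5.70 and 5.98 in KO 1, KO 11 and KO 12, against 6.26, 5.97 and 5.27 in WT 11, WT 12 and WT 13. On day 2 all 3 lungs were above all 3 of day 1. The genotype difference was 0.08 (SE 0.19, interval from -0.40 to 0.56), and it was -0.13 (SE 0.16) in its second probe and -0.13 in the brightest probe without the day in the model, so no direction can be given.

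**Figure D2:**
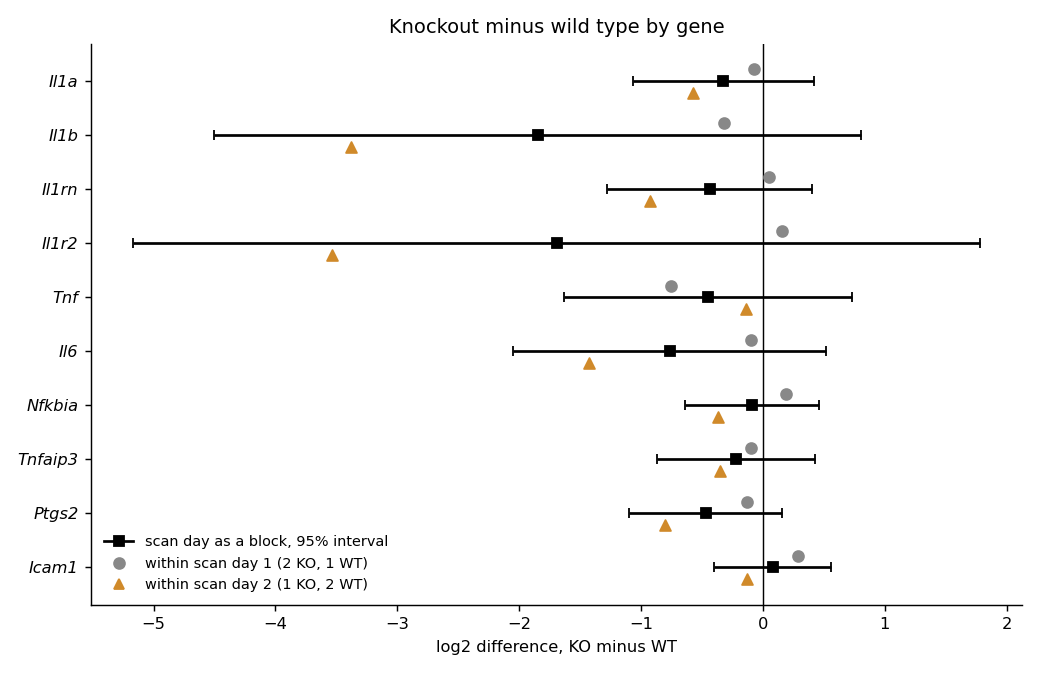
Log2 difference of KO minus WT (x axis) for each gene (y axis). Black squares give the fit with scan day as a block and its 95% interval, grey circles the difference within scan day 1 and orange triangles that within scan day 2. Every interval spans 0, and Il1b and Il1r2 have the widest, with day 2 values of -3.38 and -3.54.

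The differences were also taken within each of the 2 scan days. Within day 1, with KO 1 and KO 11 against WT 13, 6 of the 10 genes lay below 0, where 54.6% of all genes did. Within day 2, with KO 12 against WT 11 and WT 12, all 10 lay below 0, where 39.8% of all genes did. Below 0 in both days were 6 of the 10 and 15% of all genes. Il1b differed by -0.32 within day 1 and -3.38 within day 2, Il1r2 by 0.15 and -3.54, and Il1rn by 0.05 and -0.92. Tnf ran the other way, with -0.76 within day 1 and -0.14 within day 2. A test of genotype by scan day, added after the values were seen, gave a change of -3.06 (SE 1.84) for Il1b and -3.69 (SE 2.54) for Il1r2, with adjusted p of 0.536 and 0.573 in limma. It called 0 of the 10 genes and 0 of all genes, so a difference between the days was not shown. Each day has a single array of 1 group, whose spread is taken from the other arrays.

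Between the scan days none of the 10 genes passed the adjusted threshold, where 11% of all genes did, 2.24% higher and 8.73% lower on day 2. Nfkbia measured 4.24 ± 0.29 on day 2 and 5.12 ± 0.18 on day 1 (SD, n = 3 each), a fitted change of -0.91 (SE 0.22) with an adjusted p of 0.0619 in limma. Icam1 measured 6.07 ± 0.16 on day 2 and 5.46 ± 0.22 on day 1, a change of 0.63 (SE 0.19) with an adjusted p of 0.1045 in limma. Il1rn differed between the days by 0.83 (SE 0.33), with an adjusted p of 0.186 in limma.

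The genes most like Il1b and Il1r2 across the lungs included markers of neutrophils. The 5 tested genes with the smallest root mean square difference from Il1b in centred log2 signal over the 6 lungs were Clec4d at 0.206, Tarm1 at 0.217, Nlrp12 at 0.25, Csf3r at 0.282 and Trim30b at 0.294. Tarm1 was near the limit of detection. Its values of -8.98 in KO 1, -8.41 in KO 12 and -7.5 in WT 13 lay below the lowest signal called well above background on those arrays. Csf3r encodes the receptor of the granulocyte growth factor G-CSF, and Clec4d a C-type lectin of myeloid cells. Csf3r measured -1.25, 1.76 and -0.78 in KO 1, KO 11 and KO 12, against 2.28, 1.98 and 0.37 in WT 11, WT 12 and WT 13, the same order of lungs as Il1b. For Il1r2 the nearest genes were Slfn4 at 0.305, Clec4d at 0.358, Clec4e at 0.375, Mrgpra2b at 0.392 and the neutrophil collagenase Mmp8 at 0.416. These likenesses rest on 6 lungs and are descriptions only.

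**Figure D3:**
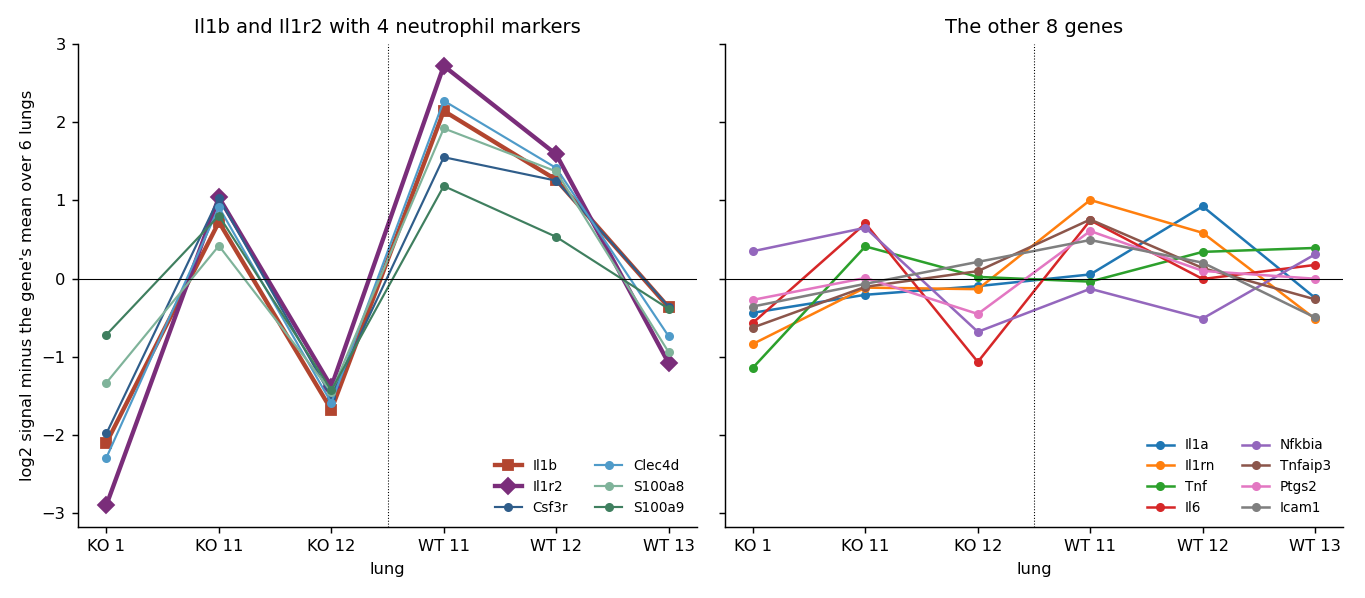
Log2 signal minus the mean of the same gene over 6 lungs (y axis) in each lung (x axis, KO left of the dotted line). The left panel sets Il1b and Il1r2 beside the neutrophil markers Csf3r, Clec4d, S100a8 and S100a9, and the right panel shows the other 8 genes. Csf3r and Clec4d were chosen for their likeness to Il1b, so their match is no result. The 6 lines on the left peak in WT 11 and are lowest in KO 1 or KO 12, an order that Ltf, Elane and Prtn3, which are not drawn, do not share, while the lines on the right stay within 1.14 units of 0.

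The neutrophil list, like the others, was chosen with earlier results of these data known. Of its 21 tested genes, 20 lay below 0 with a median difference of -0.82. Of these 3 had an unadjusted p under 0.05, where 1.31% of all genes did in this direction: Ltf at -0.77 (SE 0.22), Elane at -0.82 (SE 0.24) and Prtn3 at -0.69 (SE 0.22), which encode proteins of neutrophil granules. None passed the adjusted threshold. Ltf measured 1.48, 1.27 and 1.42 in KO 1, KO 11 and KO 12, against 2.21, 2.70 and 1.87 in WT 11, WT 12 and WT 13. Prtn3 measured -4.98, -5.57 and -5.51 in KO 1, KO 11 and KO 12, against -4.98, -4.60 and -4.61 in WT 11, WT 12 and WT 13. The order of lungs was not that of Il1b: KO 11, the third highest lung for Il1b, was the lowest for both genes, and WT 12 was the highest. Elane measured -5.73, -6.22 and -6.92 in KO 1, KO 11 and KO 12, against -6.0, -5.64 and -5.44 in WT 11, WT 12 and WT 13, with WT 13 highest and overlapping groups. The mean log2 signal of the list was -0.48, 0.69 and -0.50 in KO 1, KO 11 and KO 12, against 1.51, 1.17 and 0.05 in WT 11, WT 12 and WT 13. Its summed scaled signal ranged from 81.2 to 243.1 in KO and from 128.1 to 380.1 in WT. The 1 gene of the list that was not well above background in a lung was Elane, in KO 12. That was the lowest Elane value, so the Elane difference rests in part on a signal that was not well above background. Within day 1 the list median was 0.06 and within day 2 it was -1.49. S100a8, S100a9 and Csf3r differed by -1.30, -0.93 and -1.51. The part of neutrophil content in the differences of Il1b and Il1r2 was not tested.

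Markers of other cell types were summarised in the same way. Monocyte and macrophage markers had 6 of 16 genes below 0, with a median of 0.02. Above 0, 2 genes had an unadjusted p under 0.05, where 0.79% of all genes did in that direction. They were Chil3 at 0.46 (SE 0.16) and the lysozyme gene Lyz2 at 0.51 (SE 0.20). Ccr2, among the 6 below 0, went the other way by -0.925 (SE 0.50), with overlapping groups. The mean log2 signal of the list was 1.33, 1.73 and 1.54 in KO 1, KO 11 and KO 12, against 1.80, 1.89 and 1.29 in WT 11, WT 12 and WT 13. Endothelial markers had 5 of 13 genes below 0 and a median of 0.03. Lung epithelial markers had 11 of 14 above 0 and a median of 0.13, and T and B cell markers 11 of 13 above 0 and a median of 0.14. Of the T and B cell genes, 2 had every knockout lung above every wild-type lung, where 2.4% of all genes did. They were Cd3g and Cd3d, chains of the T cell receptor complex, at 0.50 (SE 0.16) and 0.45 (SE 0.19). Cd3g had a p in limma of 0.0233 before adjustment and 0.9995 after it.

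No gene in the pathway lists passed the adjusted threshold. Of 23 genes of the interleukin-1 family and its receptors, 10 lay below 0 with a median of 0.02, and 0 reached an unadjusted p under 0.05. Within it Il1f9, which encodes interleukin-36 gamma, differed by -1.77 (SE 0.99) and measured -4.65, -1.60 and -3.15 in KO 1, KO 11 and KO 12, against 0.03, -0.37 and -2.56 in WT 11, WT 12 and WT 13. That is again WT 11 highest and KO 1 lowest. Il18, an inflammasome-processed cytokine, differed by 0.32 (SE 0.13).

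Of 20 TNF ligands, receptors and adaptors 11 lay below 0, with a median of -0.02. Lta, the lymphotoxin gene beside Tnf, was the only one at an unadjusted p under 0.05, with 0.36 (SE 0.14). In that direction 0.79% of all genes had such a p. Lta did not pass the adjusted threshold. Tnfrsf1a, the main TNF receptor, differed by -0.22 (SE 0.19).

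Of 23 NF-kB subunits, inhibitors and regulators 16 lay below 0, with a median of -0.04 and no gene at an unadjusted p under 0.05. Tnip1, a partner of A20, differed by -0.29 (SE 0.19), Map3k14, the kinase of the alternative NF-kB route, by -0.19 (SE 0.15) and Nfkbie, another inhibitor of NF-kB, by -0.18 (SE 0.16).

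Interleukin-6 family signalling had 6 of 16 genes below 0 and a median of 0.05, with Socs3, its feedback inhibitor, at -0.60 (SE 0.64). The smallest p of that list belonged to Il11ra1, a receptor of interleukin-11, at 0.38 (SE 0.19). Its knockout lungs lay above the wild-type lungs, though KO 1 and WT 12 both round to 4.35. Prostanoid synthesis and receptors had 10 of 17 below 0 and a median of -0.03, with the prostaglandin E receptors Ptger1 at -0.76 (SE 0.38) and Ptger3 at -0.53 (SE 0.32). Leukocyte adhesion genes had 11 of 18 below 0 and a median of -0.12, with Selp, the P-selectin gene, at -0.44 (SE 0.23). None of these 3 lists held a gene at an unadjusted p under 0.05.

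Immediate early genes, which respond within minutes to handling and stimulation, had 13 of 20 below 0 and a median of -0.17, with medians of 0.33 within day 1 and -0.61 within day 2. Fos differed by -0.90 (SE 0.30), with a p in limma of 0.0276 before adjustment and 0.9995 after it. Fos measured -1.95, -1.30 and -0.74 in KO 1, KO 11 and KO 12, against 0.74, 0.49 and -1.17 in WT 11, WT 12 and WT 13. WT 11 and WT 12 were the highest lungs and KO 1 the lowest, while KO 12 was the highest knockout lung, above WT 13. In 1 of the 20 genes every knockout lung lay above every wild-type lung, where 2.4% of all genes did. In 4 of the 20 genes every knockout lung lay below every wild-type lung, where 1.6% of all genes did. They included Dusp1 at -0.46 (SE 0.20), Egr1 at -0.76 (SE 0.35) and Ccn1 at -0.30 (SE 0.14), each lowest in KO 12 and none at an unadjusted p under 0.05. For Egr1 the separation is minimal, since KO 11 and WT 13 both round to 0.31.

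**Figure D4:**
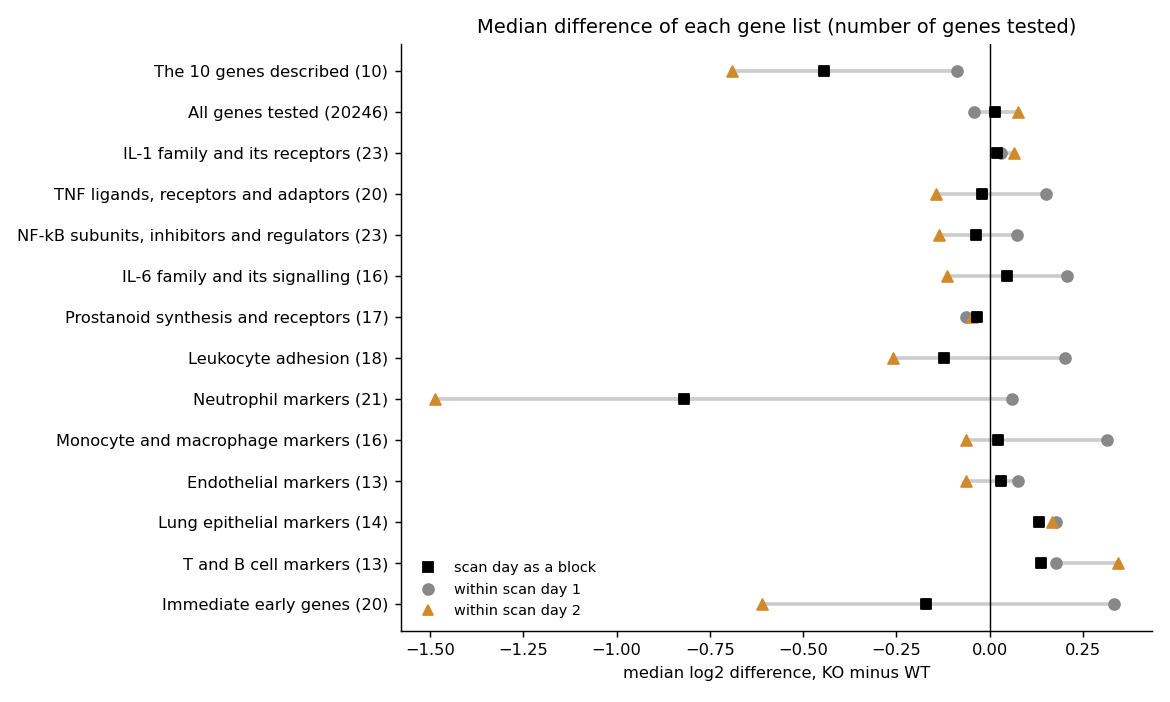
Median log2 difference of KO minus WT (x axis) over each gene list (y axis, number of genes tested in brackets). Black squares give the fit with scan day as a block, grey circles day 1 and orange triangles day 2. The 10 genes described (-0.44) and the neutrophil markers (-0.82) lie furthest below 0, and both are near 0 within day 1. The 10 genes and the lists were chosen with earlier results of these data known.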

How the data were processed

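Lung RNA was amplified with Cy3 label and read, per the labels' protocols, on single-colour mouse arrays. The deposited scanner files hold intensity values, background-subtracted by Agilent's Feature Extraction (9.5.1.1 in the headers, 9.1 in the submitters' processing notes) and with no scaling across arrays. A deposited matrix of the authors holds log2 intensity, with array medians of 8.087 to 8.09. The sources used here do not give how it was made. Its values ranked like the scanner's uncorrected median signal (Spearman correlation of 0.999958 to 0.999982 across probes). Probe positions are on mm7 and promoter windows are RefSeq's on GRCm38.p6.

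Flagged spots were left out, spots of a probe averaged, and 30 of 41174 probes dropped. Log2 of the processed signal minus each array's 75th percentile was fitted with limma 3.58.1 in R 4.3.3 (genotype and scan day, Benjamini-Hochberg over 20246 genes). A gene was its brightest probe by mean processed signal among those well above background on at least 3 of 6 arrays. RefSeq named 32719 probes. The fit had 3 residual degrees of freedom, and the number of arrays limits its precision. Genes named were the 10 members, up to 4 genes of each list with the smallest p, 3 further neutrophil markers, Rtn4, and the 5 genes most like Il1b and Il1r2. Members and lists were chosen with earlier results of these data known. Figures were drawn with matplotlib 3.10.9.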

Additional observations from a re-analysis of the deposited data

How the results depend on the processing

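None of the 10 genes passed an adjusted p of 0.05 between genotypes in any of the 19 alternatives. At an unadjusted p under 0.05 the main fit had 0 of them and slide as a random block 5. The replicate block (numbers 11 and 12 in both groups) had 3 and the authors' values 1. Counts at this level within a single scan day are not given, since each day has a single array of 1 group. Leaving out an array gave 0 to 4, the 4 without KO 11. Over all genes the adjusted count of 0 became 2 with slide as a random block, 1 with normexp and 1 with the authors' values, and 0 when an array was left out. The count of genes at an unadjusted p under 0.05 was 425, against 191 without scan day, 3865 on day 2 alone and 723 with slide, and 209 (without WT 12) to 1541 (without WT 13) with an array left out. Between scan days 0 of the 10 genes passed, against 1 with quantile normalization, 2 with normexp, 2 with the authors' values and 1 with trended, robust variances. Between days 2220 of 20246 genes passed, against 2842 with quantile normalization, 2979 with normexp, 3026 with the authors' values and 2883 with trended, robust variances. Median scaling gave 3648, and leaving out an array gave 623 (without WT 13) to 2461 (without KO 11). Il1a, Il1b, Il6, Tnfaip3 and Ptgs2 kept a negative difference in every alternative that gave one, but their sizes depended on single arrays. With an array left out, Il1a ranged from -0.58 to -0.08, Il1b from -3.38 to -0.32, Il6 from -1.43 to -0.10 and Ptgs2 from -0.81 to -0.13, each furthest from 0 without WT 13 and nearest without KO 12. Tnfaip3 ranged from -0.35 (without KO 11) to -0.07 (without WT 11), and Tnf from -0.76 (without KO 12) to -0.07 (without KO 1). Directions turned for Il1rn (0.046) and Il1r2 (0.15) on day 1 alone or without KO 12, and with an array left out they ranged from -0.92 (without WT 13) to 0.046 and from -3.54 (without WT 13) to 0.15. Tnf turned to 0.059 with the replicate block. Nfkbia turned to 0.21 without scan day, 0.19 on day 1 alone, 0.30 with the replicate block, and ranged from -0.37 (without WT 13) to 0.19 (without KO 12) with an array left out. Icam1 turned to -0.13 without scan day and on day 2 alone, -0.036 with slide, -0.27 with the replicate block, -0.095 with quantile normalization, -0.10 with normexp and with the authors' values, and -0.023 with the mean of all probes, and ranged from -0.13 (without WT 13) to 0.29 (without KO 12) with an array left out. The cause of these turns was not tested. Same-numbered lungs deviated from their group means with correlations of -0.246 (number 11) and 0.417 (number 12). The scan day was not removed from these deviations. The 11 pair spans both days and the 12 pair shares scan day 2, so the correlations cannot decide whether the numbers pair animals. The labels do not call the number a pairing, and it is not taken as one.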
